A study of Mus musculus with 6 samples.

Results

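The genes described here are Trp53, which encodes the mouse tumor suppressor p53, and 31 genes known as its regulators or targets. They are picked by name, by a rule that itself uses no measured value, but the names were chosen with earlier results of these data known. All 32 were listed among the 24493 genes of the expression table. The data are bulk RNA sequencing of sorted pancreatic tumor cells, given as TPM, a unit that corrects for transcript length and scales every library to the same total. The tumors grew under the skin of C57BL/6 mice. In the GAFCP group (2 libraries) the tumors had received gemcitabine, abraxane, a CD40 agonist and blockade of CTLA-4 and PD-1, and in the control group (4 libraries) they had not. Every sample title starts with 6419c5, the name of 1 tumor cell clone. Its Trp53 genotype is not in the labels, and TPM does not separate a mutant from a normal allele. As background, pancreatic tumor clones of this naming come from a mouse model that carries a mutant Trp53 allele. The labels give no age, dose, time or sort gate. They also do not say that each library is a different mouse, so the p-values describe variation among libraries, part or all of which could be technical.

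p53 is a transcription factor that is normally kept scarce by Mdm2, a ubiquitin ligase whose own gene is a p53 target. After DNA damage, such as the stalled DNA synthesis caused by a nucleoside analog like gemcitabine, p53 protein is stabilized and switches on genes for cell cycle arrest, cell death, DNA repair and metabolic control. This control acts mainly on the protein, so the level of Trp53 RNA is not a measure of p53 activity. Many of the targets also answer to other factors: Cdkn1a, Plk2, Plk3, Btg2 and Gdf15 to growth factor, inflammatory or stress signals, and Sesn2, Ddit4, Gdf15 and Pmaip1 to ATF4, the factor of the integrated stress response.

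The members did not move as a block. With GAFCP, Cdkn1a, Pmaip1 and Gdf15 were between 2.56 and 3.61 times their control TPM, Perp was at 0.458 of it, and most other members differed by less than 1.5 times. Of 31 members tested (at least 1 TPM in at least 2 libraries, limma on log2(TPM + 1), adjusted p under 0.05), 10 rose and 8 fell, and 13 did not pass. Across all 13720 genes tested, 47.5% passed, 19.0% higher and 28.5% lower, against 58.1% of the members, 32.3% higher and 25.8% lower. The median log2 change of the members was -0.01, and that of all genes tested was -0.07. At least 2-fold on the log2 scale, 3 members were higher (9.68% of those tested, against 4.69% of all genes) and 1 lower (3.23%, against 2.51%). In 24 members both GAFCP libraries lay outside the control range (77.4%), as they did in 61.6% of all genes. Without GAFCP library 2 the fit takes the spread of a lone GAFCP sample from the controls, and fewer members and fewer of all genes passed. With control libraries 3 and 4 as the only controls, 11 members were higher and 5 lower. Over all 13414 genes tested there, 2520 were higher and 2904 lower. With median-of-ratios scaling 13 were higher and 7 lower, and the split over all genes was 3460 higher and 3424 lower, where the main fit had 2606 and 3909.

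**Figure D1:**
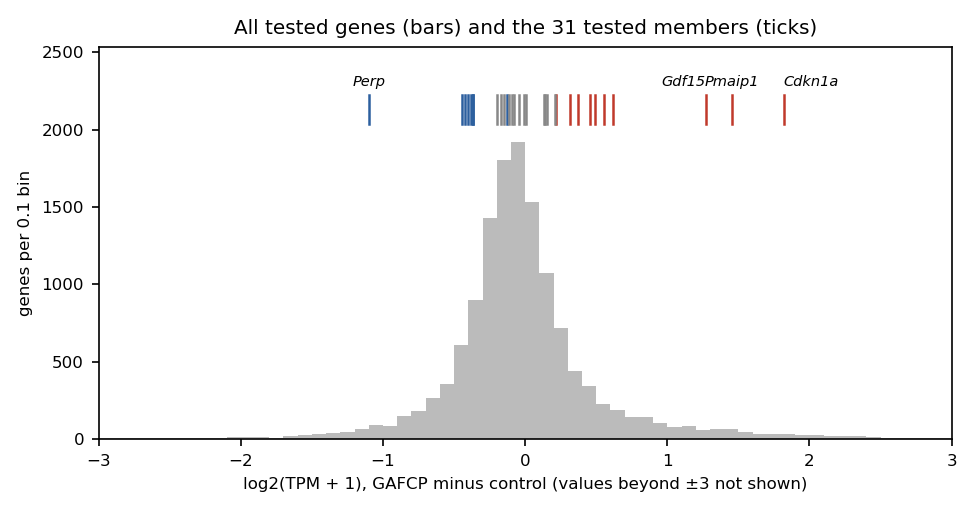
Log2 change, GAFCP minus control, on the log2(TPM + 1) scale for all 13720 genes tested (grey bars, genes per 0.1 bin) and the 31 tested members (ticks; red higher, blue lower, grey not past the test). Most ticks sit in the bulk of all genes, and Cdkn1a, Pmaip1, Gdf15 and Perp stand outside it.

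By rank, Cdkn1a had the 223rd largest increase of the 13720 genes, Pmaip1 held place 367 and Gdf15 place 482, while Perp held place 341 among the decreases. By level, Trp53, Ddit4 and Bax were the most abundant members in the control libraries, above at least 92.0% of all tested genes. Eda2r, a death-domain receptor gene, stayed at 0.134 TPM in GAFCP library 1, 0.134 TPM in GAFCP library 2 and at most 0.114 TPM in the controls, and was not tested.

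Promoter windows of 300 bases, from 250 bases before to 50 after a RefSeq start (GRCm38.p6), were at hand for 24 of the 32 members. The 8 without a window were Zmat3, Pmaip1, Perp, Tnfrsf10b, Trp53inp1, Ddb2, Xpc and Rrm2b, so no motif count covers them. The windows at hand are described next. These windows were searched for the p53 decamer, the 10-base consensus to which a p53 dimer binds. The decamer is its own reverse complement in pattern, so both strands are covered. A decamer was found in 10 of the 24 member genes (41.7%) and in 9.55% of all 27025 genes with a window. A full site, which is a pair of decamers with a spacer of at most 13 bases, was found in 1 member, Cdkn1a, and in 0.0740% of all genes. The Cdkn1a window at chr17:29090729-29091028 (plus strand), around its upstream start, is shown because it holds this pair, in capitals, with a spacer of 12 bases. Only exact matches are in capitals. The 10 bases right after the downstream decamer, tgacatgttc, miss the consensus only at their starting base and stay in lower case. Which of these stretches p53 binds was not tested. The window of the other Cdkn1a start, 2790 bases downstream, held no decamer.

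Cdkn1a, upstream start: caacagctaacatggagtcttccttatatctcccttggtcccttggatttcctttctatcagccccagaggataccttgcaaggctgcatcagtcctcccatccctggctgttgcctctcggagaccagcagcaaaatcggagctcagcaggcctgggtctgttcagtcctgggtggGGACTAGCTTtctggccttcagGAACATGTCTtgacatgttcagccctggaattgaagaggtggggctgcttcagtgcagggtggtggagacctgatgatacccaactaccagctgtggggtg

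Next to it are 30-base stretches from members that differ in how they moved, each with its decamer in capitals and 10 bases on either side. Mdm2 lies at chr10:117710925-117710954 (minus strand), Aen at chr7:78895927-78895956 (plus), Bax at chr7:45467080-45467109 (minus), Ccng1 at chr11:40755452-40755481 (minus), Ei24 at chr9:36797325-36797354 (minus) and Trp53 at chr11:69580274-69580303 (plus).
Mdm2 (rose): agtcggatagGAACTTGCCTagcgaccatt
Aen (rose): agccgaagccGGGCTTGTCCgggcaaggag
Bax (rose): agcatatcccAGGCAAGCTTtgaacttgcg
Ccng1 (did not pass): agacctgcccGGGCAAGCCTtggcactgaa
Ei24 (fell): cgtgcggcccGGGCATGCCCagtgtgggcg
Trp53 (fell): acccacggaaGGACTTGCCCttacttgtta

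The members with a decamer in the window went both ways: 5 rose (Cdkn1a, Mdm2, Aen, Bax and Sesn1), 4 fell (Trp53, Ppm1d, Ei24 and Polk) and Ccng1 did not pass. Of the 14 members whose windows held none, 4 rose, 1 fell, 8 did not pass and 1 was not tested. Over all genes tested, 19.0% were higher and 28.5% lower. Among the called members with a decamer, Mdm2, Bax, Sesn1, Trp53 and Polk lost their call under some of the alternative fits described below. Whether a decamer bears on the calls was not tested. The windows were also searched on both strands for the AP-1 motif TGANTCA, found in Mdm4 and in 8.97% of all genes, and for the ATF4 motif TGATGNAAN, found in Polk and in 4.50% of all genes. These matches describe letters in a short window, and p53 sites of several members are known to lie elsewhere, as in the first intron of Mdm2.

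Of the 4 genes for p53 and its feedback, 1 rose (25%, against 19.0% of all genes) and 2 fell (50%, against 28.5%). Trp53 was at 128.4 and 127.3 TPM in the GAFCP libraries, against 139.9, 140.7, 136.8 and 141.9 TPM in the controls. Both GAFCP values lay below every control, and the log2 change was -0.13 ± 0.03 (SE, limma adjusted p = 0.0156). Trp53 no longer passed when control library 4 was left out (adjusted p = 0.0534), without GAFCP library 1 (adjusted p = 0.0893) or 2 (adjusted p = 0.118), with control libraries 3 and 4 alone (adjusted p = 0.0573) and with median-of-ratios scaling, where the change was -0.06 (adjusted p = 0.151). Mdm2 was at 27.98 and 29.4 TPM with GAFCP, against 20.9, 24.2, 19.1 and 24.1 TPM in controls. It rose by 0.37 ± 0.10 on the log2 scale (SE, limma adjusted p = 0.016), with no overlap between the groups. Without GAFCP library 1 (adjusted p = 0.0591) or 2 (adjusted p = 0.101) Mdm2 did not pass. Ppm1d, a phosphatase that turns the p53 response off, fell to 8.59 and 8.77 TPM with GAFCP, against 10.7 to 12.2 TPM in controls (log2 change -0.37 ± 0.07, SE; limma adjusted p = 0.0040). Mdm4, an Mdm2 relative that inhibits p53, overlapped between the groups at 10.9 and 10.3 TPM with GAFCP and 9.27 to 11.6 TPM in controls, a log2 change of 0.00 with a 95% interval of -0.21 to 0.22. Mdm2 and Ppm1d, both p53 targets and both brakes on it, therefore moved in opposite directions.

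**Figure D2:**
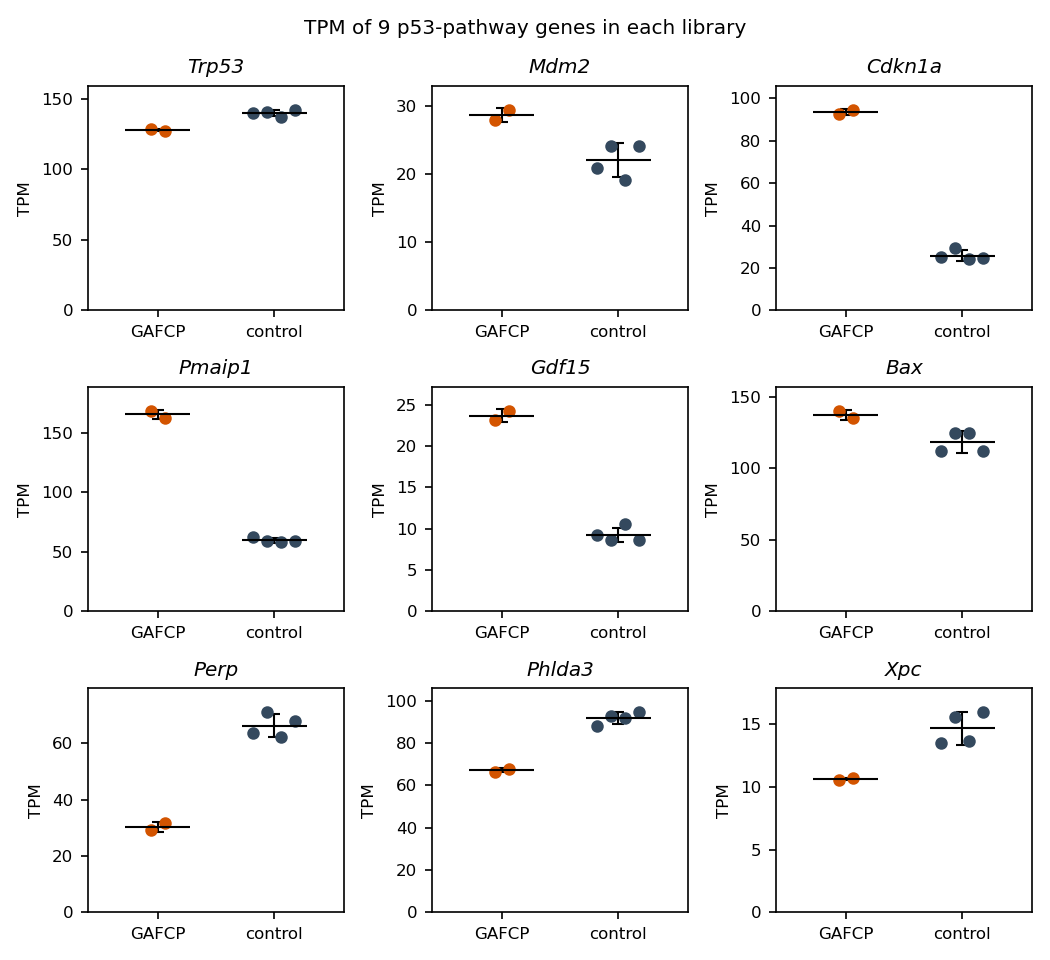
TPM of 9 members in each library (points), with the group mean (horizontal line) and SD (bar), for GAFCP (left, 2 libraries) and control (right, 4 libraries). Cdkn1a, Pmaip1 and Gdf15 stand well above the controls, Perp, Phlda3 and Xpc stand below them, and Trp53, Mdm2 and Bax differ by small steps.

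Of the 6 arrest genes, 3 rose (50%, against 19.0% of all genes) and 0 fell (against 28.5%), with Cdkn1a in the lead. With library weights 2 arrest genes were lower, as were 4753 of all 13720 genes tested. Without control library 3 also 2 were lower, as were 4641 of 13655. Cdkn1a (chromosome 17, 29090976 to 29100727, mm10) encodes p21, the inhibitor of cyclin-dependent kinases through which p53 halts the cell cycle. It was at 92.5 and 94.4 TPM in the GAFCP libraries, against 25.2, 29.4, 24.3 and 24.5 TPM in the controls. Every GAFCP value was more than 3 times every control value, and the log2 change was 1.82 ± 0.08 (SE, limma adjusted p = 1.3e-06). Plk3 and Plk2, polo-like kinases induced by stress and by growth factors, rose by 0.62 ± 0.07 and 0.55 ± 0.10 (SE, limma adjusted p = 2.4e-04 and 0.0023). Plk3 was at 18.1 and 20.6 TPM with GAFCP, against 11.7 to 12.6 TPM in controls, and Plk2 at 18.6 and 18.3 TPM, against 10.9 to 14.3 TPM. For both kinases the groups did not overlap.

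The remaining arrest genes did not pass the test. Ccng1, which encodes cyclin G1 and is a standard p53 target, was at 28.7 and 28.8 TPM with GAFCP, against 29.3 to 32.5 TPM in controls (log2 change -0.12, 95% interval -0.24 to 0.01, limma adjusted p = 0.12). Zmat3, an RNA-binding p53 target, was at 7.536 and 7.459 TPM with GAFCP, against 7.542 to 9.81 TPM in controls (log2 change -0.20, 95% interval -0.43 to 0.04). Without control library 3 both passed as lower, with adjusted p of 0.0157 for Ccng1 and 0.0224 for Zmat3, and Ccng1 also passed with control libraries 1 and 2 alone (adjusted p = 0.0314). Btg2, an antiproliferative gene that is also an immediate-early gene, was at 20.2 and 21.5 TPM with GAFCP, against 17.4 to 20.4 TPM in controls (log2 change 0.14, 95% interval -0.03 to 0.31). With median-of-ratios scaling Btg2 passed as higher (log2 change 0.20, adjusted p = 0.0142). The summed TPM of the 6 arrest genes was 185.6 and 191.1 with GAFCP, against 101.1 to 117.6 in controls, and Cdkn1a supplied most of that difference.

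**Figure D3:**
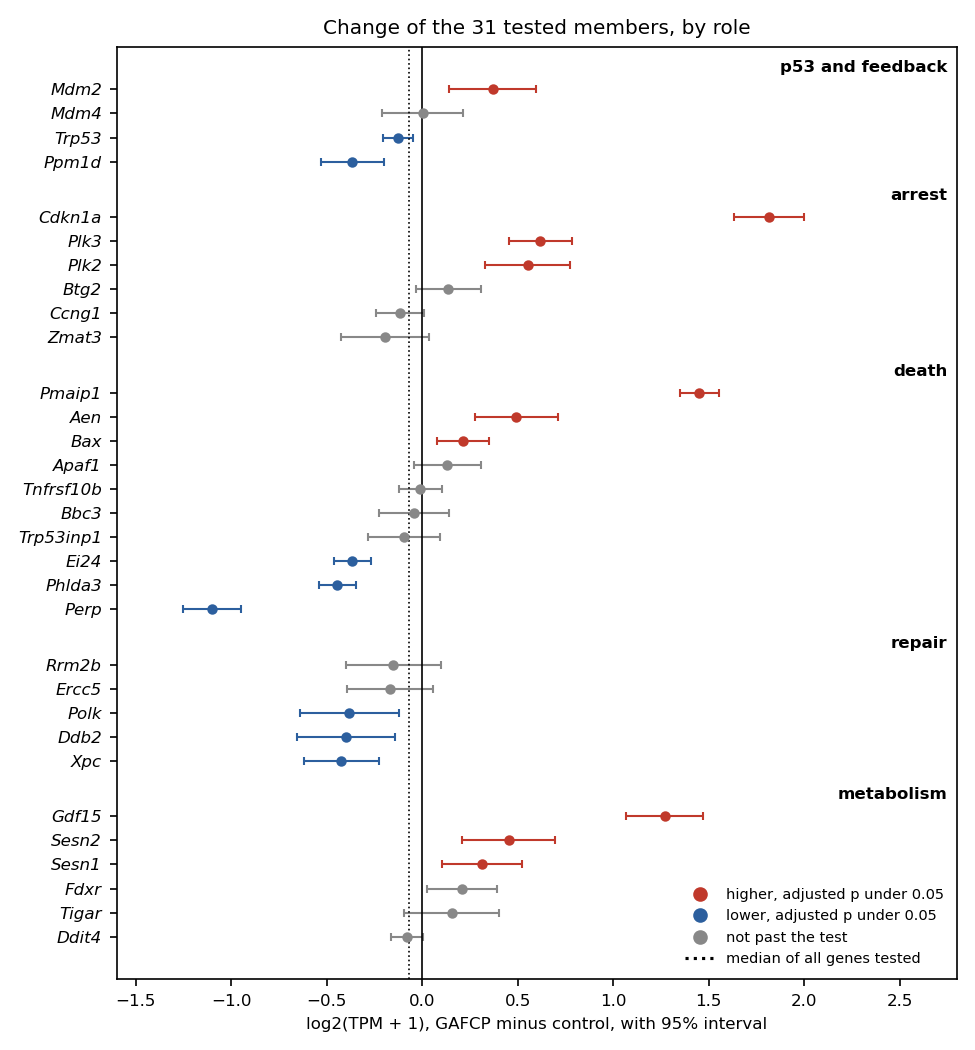
Log2 change (GAFCP minus control, log2(TPM + 1)) with its 95% interval for the 31 tested members, by role, in red where higher, blue where lower and grey where the test was not passed. Increases reach 1.82 (Cdkn1a) among arrest genes, and all 5 repair genes lie below 0.

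The death genes split in both directions. Pmaip1 (chromosome 18, 66458533 to 66465565) encodes Noxa, a BH3-only protein that neutralizes the survival protein Mcl1. It was at 168.5 and 163.0 TPM with GAFCP, against 62.9, 59.6, 58.5 and 58.9 TPM in controls, an increase of 1.45 ± 0.04 on the log2 scale (SE, limma adjusted p = 1.7e-07). The 2 GAFCP values stood far above a tight control range. Bbc3, which encodes Puma, the other BH3-only protein among the members, overlapped between groups at 12.2 and 11.3 TPM with GAFCP and 11.1 to 12.9 TPM in controls (log2 change -0.04, 95% interval -0.22 to 0.14). The point estimate for Bbc3 turned to 0.018 with median-of-ratios scaling and did not pass there.

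Bax, the pore-forming effector that BH3-only proteins set free, was at 139.9 and 134.7 TPM with GAFCP, against 111.9, 124.4, 124.9 and 111.9 TPM in controls. It rose by 0.22 ± 0.06 on the log2 scale (SE, limma adjusted p = 0.0185), but not without GAFCP library 1 (adjusted p = 0.126) or 2 (adjusted p = 0.0623). Aen, a nuclease that takes part in p53-dependent death, rose to 23.5 and 23.7 TPM with GAFCP, against 14.96 to 18.8 TPM in controls (log2 change 0.49 ± 0.09, SE; limma adjusted p = 0.0036). Apaf1, the scaffold of the apoptosome, was at 8.53 and 8.38 TPM with GAFCP, just above the control range of 7.21 to 8.22 TPM, and did not pass (log2 change 0.13, limma adjusted p = 0.19). Apaf1 did pass with median-of-ratios scaling (log2 change 0.19, adjusted p = 0.0451).

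Perp, a membrane protein gene of desmosomes and epithelial adhesion that is also a p53 and p63 target, had the largest decrease among the members. It was at 29.1 and 31.5 TPM with GAFCP, against 63.6, 71.0, 62.1 and 67.8 TPM in controls (log2 change -1.10 ± 0.07, SE; limma adjusted p = 7.1e-06). Each GAFCP value was far below the lowest control. Phlda3, which restrains Akt signaling, fell to 66.5 and 67.8 TPM with GAFCP, against 87.9 to 94.6 TPM in controls (log2 change -0.44 ± 0.04, SE; limma adjusted p = 9.3e-05). Ei24, an endoplasmic reticulum protein gene first found as induced by etoposide, fell to 57.4 and 59.6 TPM, against 73.0 to 77.1 TPM (log2 change -0.37 ± 0.04, SE; limma adjusted p = 2.6e-04). In the same libraries the tumor epithelium markers, a list of 8 genes, had 5 lower (62.5%, against 28.5% of all genes) and 1 higher (12.5%, against 19.0%). Their summed TPM was 5324 and 5359 with GAFCP and 7039 to 7429 in controls. The keratins Krt7 (log2 change -0.55), Krt8 (-0.59) and Krt19 (-0.66) and Spint2 (-0.61) fell, Krt18 (-0.06) and Cdh1 (-0.10) did not pass, and Cldn4 rose (0.57). Epcam had the largest change of the list (-2.45) and was at 1.68 and 1.39 TPM with GAFCP, against 12.5 to 13.1 TPM in controls, and the part of these differences in the Perp result was not tested.

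Tnfrsf10b, the mouse TRAIL death receptor, was almost level at 23.6 and 23.5 TPM with GAFCP and 23.1 to 24.2 TPM in controls (log2 change -0.01, 95% interval -0.12 to 0.10). Its point estimate turned to 0.051 with median-of-ratios scaling and to 0.012 with control libraries 3 and 4 alone, without passing. Trp53inp1, a stress-induced cofactor that promotes p53-dependent death, overlapped at 8.71 and 8.35 TPM with GAFCP and 8.27 to 9.83 TPM in controls (log2 change -0.10, 95% interval -0.28 to 0.09).

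Of the 5 repair genes, 3 fell (60%, against 28.5% of all genes) and 0 rose (against 19.0%). Xpc and Ddb2 recognize damaged bases in nucleotide excision repair. Xpc fell to 10.6 and 10.7 TPM with GAFCP, against 13.5, 15.6, 13.6 and 16.0 TPM in controls (log2 change -0.42 ± 0.08, SE; limma adjusted p = 0.0044). Ddb2 fell to 5.35 and 4.60 TPM, against 6.36, 7.97, 6.97 and 6.28 TPM (log2 change -0.40 ± 0.11, SE; limma adjusted p = 0.0187). For both genes the groups did not overlap, but Ddb2 lost its call when GAFCP library 2 was left out (adjusted p = 0.146) or with control libraries 3 and 4 alone (adjusted p = 0.0552). Polk, a polymerase that copies past lesions, fell to 5.02 and 5.32 TPM, against 6.11 to 7.99 TPM (log2 change -0.38 ± 0.11, SE; limma adjusted p = 0.0247). Polk no longer passed when control library 1 was left out (adjusted p = 0.0520), without GAFCP library 1 (adjusted p = 0.137) or 2 (adjusted p = 0.0825), with control libraries 3 and 4 alone (adjusted p = 0.12) and with no filter on low values (adjusted p = 0.0523).

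Ercc5, the endonuclease XPG that cuts beside a lesion, was at 4.97 and 5.22 TPM with GAFCP, against 5.45 to 6.73 TPM in controls (log2 change -0.17, limma adjusted p = 0.19). Rrm2b, the p53-inducible subunit of ribonucleotide reductase, overlapped at 5.77 and 5.13 TPM with GAFCP and 5.52 to 6.78 TPM in controls (log2 change -0.15, limma adjusted p = 0.28). The summed TPM of the 5 repair genes was 31.70 and 30.99 with GAFCP, against 38.1 to 44.98 in controls, without overlap.

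Among the metabolic and stress genes, Gdf15 stood apart. Gdf15 (chromosome 8, 70629393 to 70632456) encodes a secreted stress cytokine of the TGF-beta superfamily. It was at 23.1 and 24.3 TPM with GAFCP, against 9.27, 8.59, 10.5 and 8.70 TPM in controls, an increase of 1.27 ± 0.09 on the log2 scale (SE, limma adjusted p = 1.5e-05). Both GAFCP values were more than 2 times the highest control. The sestrins, which restrain mTORC1 signaling, rose by less. Sesn2 was at 11.98 and 12.8 TPM with GAFCP, against 9.57, 8.75, 7.38 and 9.52 TPM in controls (log2 change 0.45 ± 0.11, SE; limma adjusted p = 0.0090). Sesn1 was at 9.97 and 10.1 TPM, against 8.95, 7.93, 7.50 and 7.18 TPM (log2 change 0.31 ± 0.09, SE; limma adjusted p = 0.0234).

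The sestrin calls rested on few libraries. Sesn2 lost its call when GAFCP library 2 was left out (adjusted p = 0.0713). Sesn1 lost its call when control library 4 was left out (adjusted p = 0.0555), without GAFCP library 1 (adjusted p = 0.105) or 2 (adjusted p = 0.117), or with control libraries 1 and 2 alone (adjusted p = 0.0708). Ddit4, another mTORC1 inhibitor, also called Redd1, was at 131.0 and 128.9 TPM with GAFCP, against 133.6 to 141.0 TPM in controls (log2 change -0.08, 95% interval -0.16 to 0.01), and passed as lower without control library 3 (adjusted p = 0.0433). Fdxr, the mitochondrial ferredoxin reductase, was at 16.5 and 17.1 TPM, against 13.5 to 16.0 TPM (log2 change 0.21, limma adjusted p = 0.064). Fdxr passed as higher without control library 2 (adjusted p = 0.0224), with control libraries 3 and 4 alone (adjusted p = 0.0266) and with median-of-ratios scaling (adjusted p = 0.0094). Tigar, a phosphatase that lowers glycolytic flux, overlapped at 10.2 and 9.88 TPM with GAFCP and 7.60 to 10.3 TPM in controls (log2 change 0.16, limma adjusted p = 0.27).

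**Figure D4:**
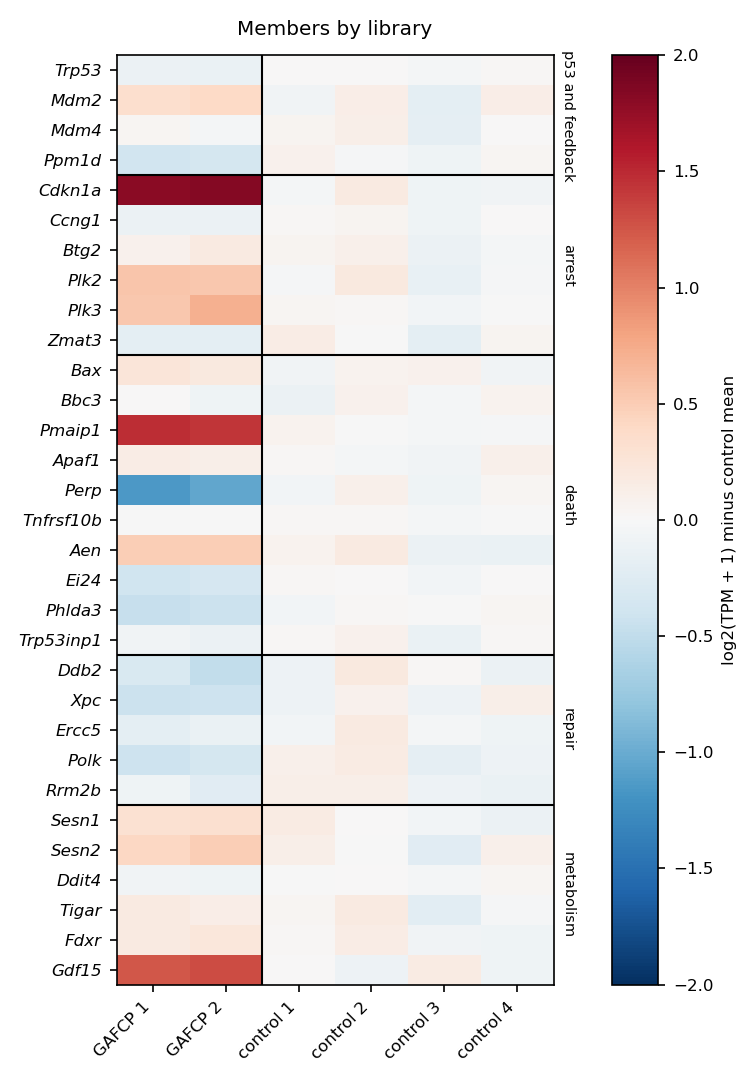
Each tested member (rows, by role) in each library (columns, GAFCP left of control), as log2(TPM + 1) minus the mean of the 4 control libraries. The GAFCP columns resemble each other, and the control columns differ among themselves by less than Cdkn1a, Pmaip1, Gdf15 or Perp differ between groups.

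Over the 31 tested members, the first principal component carried 92.5% of the variance, against 66% over all genes. Its scores for the members were 2.17 and 2.22 in GAFCP and ran from -1.21 to -1.03 in the controls. The part of Cdkn1a, Pmaip1, Gdf15 and Perp, the members with the largest changes, in this component was not tested. Within the controls, libraries 1 and 2 both lay above libraries 3 and 4 for 14 of 31 members (45.2%), among them Cdkn1a, Pmaip1, Plk3 and Aen, and for 32.9% of all genes tested, and both lay below for 0 members and for 901 of the 13720 genes. Of the tested members, Polk had the largest control coefficient of variation, at 12.7%, and Trp53 the smallest, at 1.56%.

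The libraries also differed in markers of other cells, although the labels describe sorted tumor cells. All 8 pan-leukocyte markers were higher with GAFCP (summed TPM 262.7 and 272.3, against 90.8 to 107.7 in controls), as were all 12 macrophage and monocyte markers (3311 and 3322, against 1007 to 1058), while the 12 T and NK cell markers summed to 43.6 and 39.7, against 6.91 to 9.15. No count is given for T and NK cells, because 6 of the 10 markers tested reached the minimum of 1 TPM in 2 libraries only with the GAFCP libraries, as did Cytip among the pan-leukocyte markers. Of 5 tested neutrophil markers 4 were higher (94.3 and 105.5, against 25.6 to 29.8), and 6 of 8 fibroblast markers were (325.8 and 327.2, against 193.6 to 212.8). The neutrophil marker Retnlg did not pass, at 1.26 and 2.28 TPM with GAFCP, against 2.31 to 3.24 TPM in controls. Among the T and NK cell markers, Gzma overlapped between the groups at 0.235 and 0.683 TPM, against 0.471 to 1.08 TPM. B and plasma cell markers, 1 of which was tested and higher, summed to 5.56 and 5.90 with GAFCP and 0.965 to 1.51 in controls. The 6 endothelial markers summed to 6.07 and 6.59, against 6.16 to 7.15, with 1 higher and 1 lower of 3 tested. Over all genes tested, 19.0% were higher and 28.5% lower. Ptprc, which encodes CD45, was at 10.1 and 9.45 TPM with GAFCP, against 2.17 to 3.06 TPM, Adgre1, the macrophage antigen F4/80, at 29.2 and 30.0 TPM, against 4.49 to 5.80 TPM, and Cd3e at 3.380 and 3.403 TPM, against 0.246 to 0.502 TPM. The epithelial keratin Krt19 was at 1031 and 1010 TPM, against 1581 to 1661 TPM, and Col1a1 at 100.9 and 99.98 TPM, against 85.4 to 94.2 TPM. Ly6g was listed at 0 in GAFCP library 1 and control library 1, and Cd79b in 3 control libraries. Many of the members are known to be expressed in leukocytes as well, and the part of these cells in the member results was not tested. In bulk RNA a change in the share of cells and a change in RNA per cell cannot be told apart.

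Other p53 targets outside the members also went both ways. Of 32 tested, 10 rose (31.2%, against 19.0% of all genes) and 10 fell (31.2%, against 28.5%). Their median log2 change was -0.07, as was that of all genes tested. Fas, a death receptor that interferons also induce, was at 25.7 and 23.7 TPM with GAFCP, against 6.79 to 7.87 TPM in controls (log2 change 1.61). Ephx1, an epoxide hydrolase, fell to 15.1 and 17.1 TPM, against 39.4 to 47.4 TPM (log2 change -1.41), and Sfn, which encodes the arrest protein 14-3-3 sigma, to 13.8 and 14.2 TPM, against 25.5 to 27.3 TPM (-0.87).

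Upstream of p53, 3 of 19 tested regulators and cofactors rose (15.8%, against 19.0% of all genes) and 6 fell (31.6%, against 28.5%), with a median of -0.03. The 3 that rose, named after their values were seen, were the kinases Hipk2 (log2 change 0.55) and Atm (0.41) and the acetyltransferase Kat2b (0.26), and none of them kept its call under every alternative. Cdkn2a, whose Arf product sequesters Mdm2, was highly abundant and fell to 498.8 and 457.6 TPM with GAFCP, against 681.9 to 739.3 TPM in controls (log2 change -0.56, limma adjusted p = 4.1e-05). The table does not separate Arf from the p16 product of the same gene. Rfwd2, a ubiquitin ligase for p53, fell to 16.3 and 15.4 TPM, against 21.4 to 23.2 TPM (-0.45), and Usp10, a deubiquitinase that stabilizes p53, to 53.5 and 51.4 TPM, against 65.6 to 76.6 TPM (-0.46). Ppp1r13b, a p53 cofactor of the ASPP family, had a log2 change of -0.41. The p53 relatives Trp63 and Trp73 stayed at or below 0.179 and 0.0141 TPM throughout and were too low to test.

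Genes that p53 represses through p21 and the DREAM complex did not fall together. Of 20 tested, 8 rose (40%, against 19.0% of all genes) and 4 fell (20%, against 28.5%). Their median log2 change was 0.14, in the same libraries in which Cdkn1a rose. Rrm2 encodes an S phase subunit of ribonucleotide reductase, an enzyme that gemcitabine metabolites inhibit. It was at 116.4 and 109.4 TPM with GAFCP, against 71.6 to 72.8 TPM in controls (log2 change 0.64). Top2a, the topoisomerase of dividing cells, was at 64.7 and 65.9 TPM, against 31.03 to 38.3 TPM (0.86), and the mitotic kinase gene Cdk1 at 26.8 and 25.6 TPM, against 16.0 to 17.3 TPM (0.63). Ccnb2, a mitotic cyclin, fell to 39.5 and 38.6 TPM, against 57.0 to 59.9 TPM (log2 change -0.57). With median-of-ratios scaling 13 of the 20 rose, as did 3460 of all 13726 genes tested.

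Lists for other inputs that share targets with p53 are set beside these values. Of 14 ATF4-linked genes 7 rose (50%, against 19.0% of all genes) and 2 fell (14.3%, against 28.5%), with a median of 0.20. Nupr1, a stress-induced nuclear protein gene, was at 1369 and 1395 TPM with GAFCP, against 479.5 to 502.5 TPM in controls (log2 change 1.48), Ppp1r15a, the Gadd34 phosphatase subunit, at 49.6 and 48.6 TPM, against 21.7 to 24.7 TPM (1.05), and Cebpb at 190.6 and 178.8 TPM, against 87.2 to 110.6 TPM (0.88), while Herpud1, of endoplasmic reticulum quality control, fell (-0.49). Of 20 immediate-early genes 17 rose (85%, against 19.0% of all genes) and 1 fell (5%, against 28.5%), with a median of 0.78. Dusp2, 1 of those that rose, reached the minimum of 1 TPM in 2 libraries only with the GAFCP libraries. With a mean of at least 5 TPM required, 17 were tested and 16 rose. Atf3, a stress factor, was at 121.0 and 117.0 TPM, against 18.9 to 21.8 TPM (2.48), Fosb changed by 1.86, Socs3 by 1.41 and Ier3 by 1.39. The part of these inputs in the increases of Cdkn1a, Pmaip1, Gdf15, Plk2 and Plk3 was not tested.

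**Figure D5:**
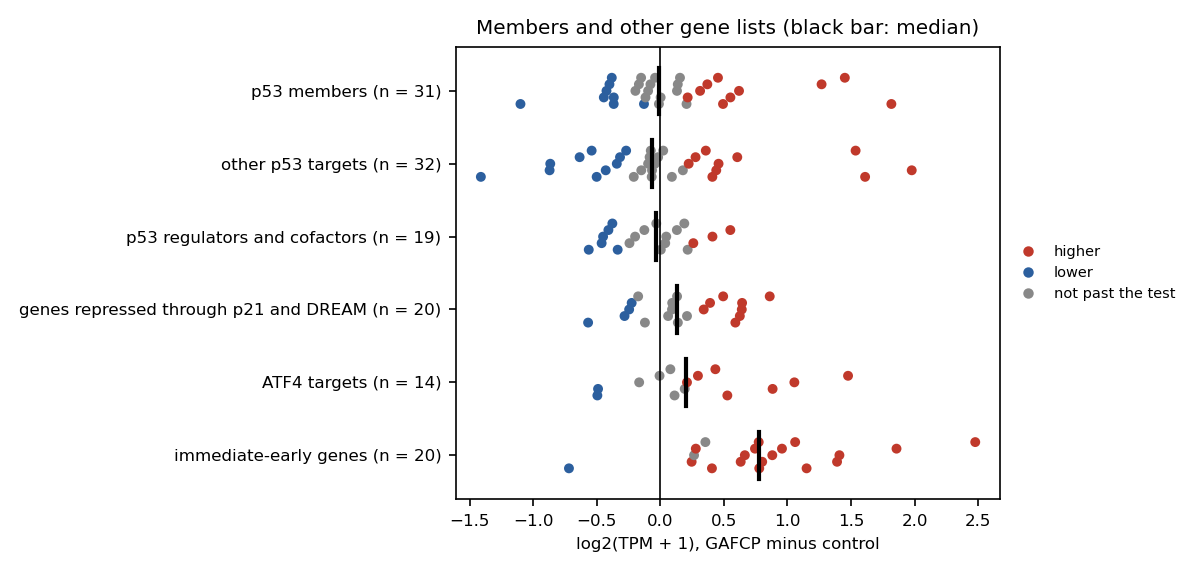
Log2 change (GAFCP minus control, log2(TPM + 1)) of each tested gene in the members and in 5 other lists (points coloured by call, black bar the median, n the genes tested). The members and the other p53 targets spread on both sides of 0, and the immediate-early genes lie mostly above it.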

How the data were processed

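Per the labels, RNA from sorted subcutaneous tumor cells was sequenced by a commercial provider. The authors' deposited values are TPM per gene, produced by Salmon on the mm10 build, according to the submitters' processing notes, which name neither version nor annotation. TPM keeps no depth, so library-to-library variation is the measure of error. Titles gave each library's group and number. The filter kept 13720 of 24493 genes (1 TPM or more in 2 or more libraries), and limma 3.58.1 (R 4.3.3) was run on log2(TPM + 1) (empirical Bayes, mean-variance trend, 4 residual degrees of freedom, two-sided). Adjustment was Benjamini-Hochberg across every tested gene, and calls were made at an adjusted p under 0.05. This scale understates changes of low genes. Values after ± are standard errors of the log2 change.

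The members, their roles and all lists were chosen with earlier results of these data known, and lists are described by counts and medians with no list test. Up to 4 called genes with the smallest p were allowed to be named from each pathway list, and some listed genes are not reported here by name. The AP-1 and ATF4 motifs were added after the values were seen. Of the listed genes, Kitlg matched no row by that symbol, and Cop1 is measured under its older symbol, Rfwd2. Positions are from GENCODE M21 on GRCm38 (mm10), and promoter sequences are from RefSeq (GRCm38.p6), matched by symbol. Alternatives changed the pseudocount, filter, scaling, variance model, library weights, replicate block and libraries used.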

Additional observations from a re-analysis of the deposited data

How the results depend on the processing

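Of the 18 members called, 11 kept their call and direction under all 17 alternatives: Cdkn1a, Pmaip1, Gdf15, Plk2, Plk3, Aen, Perp, Phlda3, Ei24, Ppm1d and Xpc. Leaving out 1 library in turn gave 6 to 11 members higher, 5 to 11 lower and 4258 to 7226 genes called in all, the lowest counts of genes coming without a GAFCP library. With control libraries 3 and 4 alone 5 members were lower, as were 2904 of all 13414 genes tested. The point estimate of Mdm4, which passed under no alternative, turned to -0.022 with rescaling without the 50 most abundant genes and with library weights, to -0.084 with the replicate block and with control libraries 1 and 2 alone, and ranged from -0.056 to 0.044 with 1 library left out. That of Bbc3 turned to 0.018 with median-of-ratios scaling and ranged from -0.093 to 0.011 with 1 library left out. That of Tnfrsf10b turned to 0.051 with median-of-ratios scaling and to 0.012 with control libraries 3 and 4 alone. The cause was not tested. With the replicate block 8 members were higher and 6 lower, as were 2128 and 3766 of all 13720 genes tested. In that fit Trp53, Bax, Ddb2 and Sesn1 did not pass (adjusted p = 0.0519, 0.0681, 0.0815 and 0.0994). Same-numbered libraries deviated from their group means with correlations of -0.007 and -0.020. With 2 GAFCP libraries the deviations of 1 are those of the other with the sign turned, so these correlations cannot decide whether libraries are paired. The main fit treats them as unpaired. With library weights Ccng1, Zmat3 and Ddit4 passed as lower (adjusted p = 0.0244, 0.0251 and 0.0315) and Fdxr as higher (0.0283). Rescaled without the 50 most abundant genes, Ccng1 and Ddit4 passed as lower (adjusted p = 0.0259 and 0.0205). Depth is unknown, so how far Eda2r, Trp63 and Trp73 could be measured is not known.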
